A study of Mus musculus with 120 samples.

Results

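Neurons of the paraventricular nucleus of the thalamus (PVT) were set against neurons of 3 intralaminar nuclei, the central lateral (CL), paracentral (PCN) and central medial (CM) nuclei, in wildtype mice. The comparison used 15 of the 120 bulk RNA-seq libraries of an atlas of 22 thalamic nuclei. They were chosen by their labels, which name the nucleus and a viral tracer placed in the striatum. PVT had 3 libraries, and CL, PCN and CM had 4 each. Every library came from a pool of fluorescent neurons sorted by hand from microdissected tissue. The tracer, a retrograde adeno-associated virus (AAV), enters axon terminals, so only neurons with an axon reaching the injected striatum were collected.

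The PVT libraries held 30 to 63 cells, from 3 female mice with recorded ages of 99 to 103 (unit not stated), labelled with rAAV2retro-GFP and amplified on the date recorded as 20150421. The CL libraries held 36 to 135 cells, from 4 females aged 98 to 103 with the same tracer, amplified on 20150602, and 3 of these mice had also given the PVT libraries. The PCN libraries held 22 to 82 cells and the CM libraries 52 to 99, from the same 4 mice, 2 males and 2 females aged 125 to 136, labelled with rAAV2retro-tdTom and amplified on 20150602. A neighbouring midline nucleus, the intermediodorsal nucleus (IMD), is given beside the comparison: its 4 libraries held 70 to 113 cells of 4 females aged 98 to 103, with rAAV2retro-GFP, amplified on 20150421, and 3 of those mice had also given the PVT libraries. Amplification date separated PVT from CL, PCN and CM completely, so within this comparison the nucleus and the date cannot be told apart. PCN and CM differed from PVT also in fluorophore, sex and age, while CL did not.

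PVT is a midline nucleus of glutamatergic neurons that project to the nucleus accumbens, the amygdala and the prefrontal cortex, and it is known for roles in arousal, stress, feeding and motivated behaviour. The intralaminar nuclei lie lateral and ventral to it, project to the dorsal striatum and to broad areas of cortex, and are known for roles in arousal and the control of action. Calretinin, the calcium buffer encoded by Calb2, is a classical histological label of midline thalamus.

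Between 13948833 and 21873519 reads were counted to genes in the 15 libraries, and 12207 to 14784 of the 16538 genes in the table had at least 1 read. Slc17a6, the vesicular glutamate transporter of thalamic relay neurons, had 1532, 1599 and 1562 CPM (read counts scaled to the library size) in PVT and 1209 to 2168 CPM in the 12 libraries of CL, PCN and CM. Its log2 fold change was 0.06 ± 0.19 (SE, adjusted p = 1). Inhibitory neuron markers were near 0: the 5 of 16 listed that the table holds, among them Pvalb, Sst and Npy, summed to at most 0.250 CPM in any PVT library and at most 8.13 CPM in the others. For other cell types, the 3 microglial markers in the table summed to 3.70 to 13.7 CPM in PVT and 0.490 to 35.5 CPM in the 12 libraries, with C1qc at 0 in every one, and the 11 oligodendrocyte markers to 30.7 to 60.0 CPM in PVT and 11.3 to 48.4 CPM in the 12, with Ermn, Mag, Mobp and Olig1 at 0 in PVT. The 2 ependymal markers summed to 0 to 3.65 CPM in PVT and 0 to 13.7 CPM in the 12, and Pomc, the hypothalamic marker in the table, ran from 0.0497 to 17.9 CPM in PVT and 0 to 4.07 CPM in the 12 (adjusted p = 0.437). Markers of endothelial and mural cells were not analysed here. Of 3 astrocyte markers, Slc1a2 made up most of a sum of 1728 to 2036 CPM in PVT and 2118 to 3014 CPM in the 12 libraries, and the 3 habenular markers summed to 996 to 1587 CPM in PVT and 256 to 619 CPM in the 12, of which Gap43 was the main member. Gap43 was the only gene of these lists called by edgeR. The part of these differences in the results was not tested. In bulk samples such as these, fewer cells of a type and less RNA per cell cannot be told apart.

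The 3 markers of the PVT label all differed between PVT and the mean of CL, PCN and CM. Calb2 (ENSMUSG00000003657.9, mm10 chr8:110137502-110168210, minus strand) was high in PVT, Prph (ENSMUSG00000023484.13, chr15:99055174-99058978, plus strand), which encodes the intermediate filament peripherin, was high in PVT, and Adarb2 (ENSMUSG00000052551.15, chr13:8202866-8768747, plus strand), a brain member of the adenosine deaminase family acting on RNA with no known editing activity, was close to 0 in PVT. The label was drawn up with earlier results of these libraries known, so the markers describe PVT here and do not test its identity.

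Calb2 had no entry in the RefSeq promoter set used. The 250 bases before the annotated starts of the other markers, Prph and Adarb2, are shown. They are on the plus strand of GRCm38.p6, at chr15:99054924-99055173 and chr13:8202616-8202865, from RefSeq. Capitals mark matches on either strand to 3 motifs: the core of the TATA box, spelled TATAAA, the box spelled CCAAT, and the box rich in G and C spelled GGGCGG. The cyclic AMP response element, TGACGTCA, was also searched and had no match.
Prph: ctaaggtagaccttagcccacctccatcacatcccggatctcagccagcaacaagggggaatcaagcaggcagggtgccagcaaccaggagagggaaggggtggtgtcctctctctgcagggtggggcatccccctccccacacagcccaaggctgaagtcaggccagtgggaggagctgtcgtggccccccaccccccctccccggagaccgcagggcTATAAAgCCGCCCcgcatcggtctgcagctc
Adarb2: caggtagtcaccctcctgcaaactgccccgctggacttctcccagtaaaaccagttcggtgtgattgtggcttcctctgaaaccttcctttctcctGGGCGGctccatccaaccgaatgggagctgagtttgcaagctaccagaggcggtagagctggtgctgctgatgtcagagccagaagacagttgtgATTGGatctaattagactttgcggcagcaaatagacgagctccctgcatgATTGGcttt
The Prph window held TATAAA 31 bases before the start and the reverse complement of GGGCGG 24 bases before it, each counted to the match's first base. The Adarb2 window held the reverse complement of CCAAT 59 and 9 bases before the start and GGGCGG 154 bases before it. Among 32851 RefSeq promoter windows of this length, TATAAA occurred in 12.4%, CCAAT in 33.8%, GGGCGG in 32.7% and TGACGTCA in 1.5%. A match is a stretch of letters and carries no measurement of binding.

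Calb2 stood at 956, 691 and 587 CPM in PVT. It stood at 280, 34.5, 137 and 94.5 CPM in CL, at 43.7, 29.3, 69.9 and 36.5 CPM in PCN, and at 68.7, 49.7, 80.2 and 72.8 CPM in CM. Every PVT library was above every one of the others, of which CL replicate 1 was the highest. Its log2 fold change against the mean of the 3 nuclei was 3.32 ± 0.72 (SE), with an adjusted p of 0.00228 in edgeR's quasi-likelihood test with Benjamini-Hochberg adjustment over 16527 genes. Against single nuclei it was called for PCN (adjusted p = 0.0288) and not for CL (0.379) or CM (0.114). The 4 IMD libraries, at 884, 717, 625 and 464 CPM, overlapped with PVT, and the fold change of PVT against IMD was 0.15 ± 0.98 on the log2 scale (adjusted p = 1). Over all 22 nuclei, PVT (745 ± 190 CPM, SD) and IMD (672 ± 176 CPM) had the highest means, followed by SPA (296 ± 51.8 CPM) and RE (268 ± 62.2 CPM), the submitters' names of further nuclei.

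Prph was at 123, 111 and 69.7 CPM in PVT. It was at 0, 0.275, 0 and 0.306 CPM in CL, at 0.043, 0, 1.49 and 0.0613 CPM in PCN, and at 33.1, 0.0603, 0.0484 and 11.3 CPM in CM. The PVT libraries were all higher, but CM was split between 2 libraries with clear signal and 2 with almost none. The fitted log2 fold change was 6.83 ± 1.33 (adjusted p = 0.000582); it averages the 3 nuclei on the log scale, whereas the ratio of mean CPM was 26. Against single nuclei it was called for CL (adjusted p = 0.0317) and not for PCN (0.0528) or CM (0.512). IMD, at 50.9, 165, 107 and 69.7 CPM, overlapped with PVT here too.

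Adarb2 had 2, 18 and 6 reads in the PVT libraries, which is 0.0832, 0.894 and 0.264 CPM. It stood at 10.7, 52.4, 36.4 and 29.5 CPM in CL, at 29.3, 26, 12 and 43.0 CPM in PCN, and at 21.2, 33.2, 5.81 and 30.5 CPM in CM. PVT lay below all 12 libraries, and the log2 fold change was -6.05 ± 0.78 (adjusted p = 3.13e-08). Adarb2 was the only named gene that was also called against IMD, where its level was 6.82, 3.11, 5.90 and 6.66 CPM, between PVT and the intralaminar nuclei (log2 fold change -3.78 ± 0.74, adjusted p = 0.0108). Across the 22 nuclei only AD (0.256 ± 0.459 CPM) had a lower mean than PVT (0.414 ± 0.426 CPM), and the ranges of both overlapped.

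**Figure D1:**
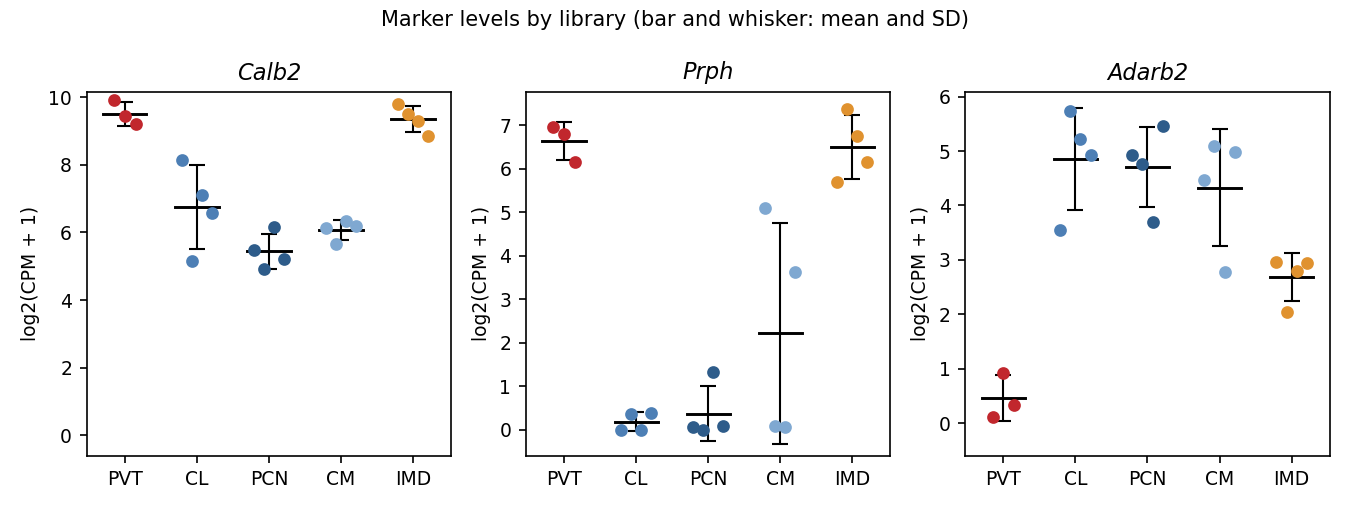
Level of Calb2, Prph and Adarb2 in each library, on the log2(CPM + 1) scale, with PVT at the left, then CL, PCN, CM and IMD; points are libraries, bars and whiskers are the mean and SD of the plotted values. Calb2 and Prph are high in both PVT and IMD, CM is split for Prph, and Adarb2 is lowest in PVT, with IMD between PVT and the intralaminar nuclei.

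Of 16527 genes tested, 360 (2.18%) were called at an adjusted p under 0.05, 200 of them (1.21%) higher in PVT and 160 (0.968%) lower. In 208 of these (1.26% of the genes tested) the ranges of the 3 PVT and the 12 other libraries did not overlap, 91 above (0.551%) and 117 below (0.708%). Called or not, the ranges were apart in 5.00% of genes, 2.83% with PVT above and 2.17% below, and 13.8% had an unadjusted p under 0.05. With PVT replicate 1 left out 198 genes were called, and with PVT replicate 2, the library of 30 cells, left out 156 were called. Genes higher in PVT numbered 109, 84 and 124 without PVT replicates 1, 2 and 3, and genes lower in PVT numbered 89 and 72 without replicates 1 and 2. Against each nucleus on its own, which reuses the PVT libraries, the calls were 85 for CL (0.514%), 160 for PCN (0.968%) and 110 for CM (0.666%). In each of these edgeR comparisons the genes lower in PVT were the greater number, 61 of 85 (0.369% of genes tested), 123 of 160 (0.744%) and 86 of 110 (0.520%), against 0.145%, 0.224% and 0.145% higher. That balance depended on the tool. DESeq2 also called more genes lower against each nucleus. By contrast limma-voom called 221 higher and 165 lower for CL, 293 and 222 for PCN, and 197 and 159 for CM. The newer edgeR 4 method called 260 higher and 123 lower for CL, 364 and 267 for PCN, and 231 and 170 for CM. In the main edgeR fit 9.96%, 11.7% and 11.4% of genes were at an unadjusted p under 0.05. The count for CL was 50 without PVT replicate 1 or CL replicate 2, 38 without PVT replicate 2 and 39 without CL replicate 3. The count for PCN was 96, 72 and 88 without PVT replicate 1, PVT replicate 2 and PCN replicate 4. The count for CM was 51, 42 and 67 without PVT replicates 1, 2 and 3 and 66 without CM replicate 2. CL, PCN and CM differed among themselves in 7 genes (0.0424%, with 6.40% at an unadjusted p under 0.05), Etl4, Zfhx4, Gpr26, Hs3st3a1, Rundc1, Nrxn3 and Ncam2, named after their values were seen. Hs3st3a1 had 20.3 CPM in CM replicate 3 and at most 0.123 CPM in the other 11 libraries, and Rundc1 had 3202 CPM in CM replicate 1 and at most 47.1 CPM in the others. That count was 4 without CM replicate 1 or 3 and 3 without CL replicate 3.

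**Figure D2:**
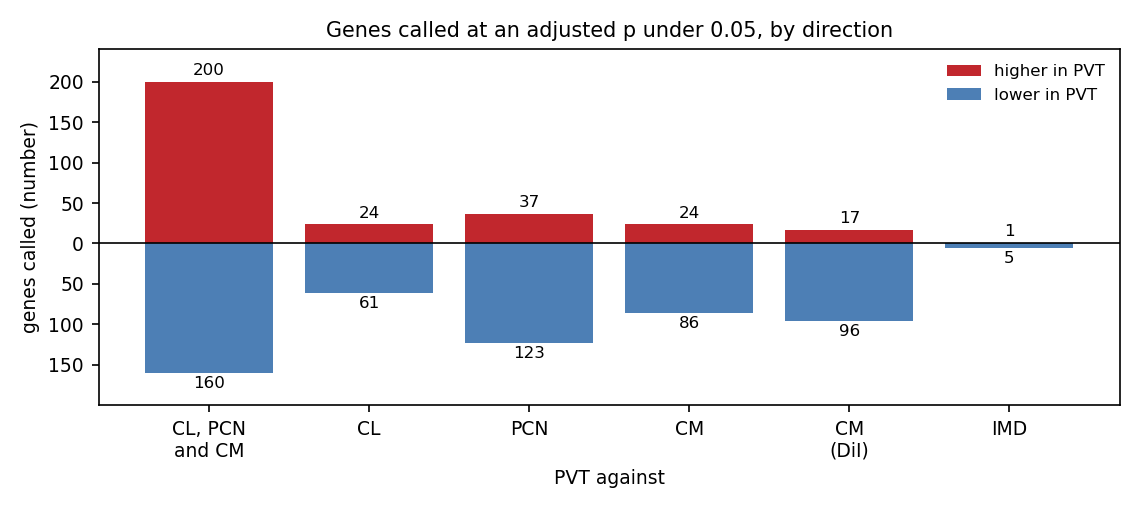
Number of genes called at an adjusted p under 0.05 in PVT against each reference, with genes higher in PVT above the line and genes lower in PVT below it. The comparison with CL, PCN and CM together has 200 and 160, CM labelled with the dye DiI has 17 and 96, and IMD has 1 and 5.

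The CM libraries labelled with DiI, a dye taken up by axons, gave a further reference. These 3 libraries held 52 to 82 cells from 3 males aged 98 to 99, amplified on 20150806. Sex, tracer and date all differed from PVT, so none of them can be told apart from the nucleus here. In PVT against them 113 genes were called (0.684%), 17 higher (0.103%) and 96 lower (0.581%), with 12.1% at an unadjusted p under 0.05. With these in place of the AAV libraries of CM, the comparison with the 3 nuclei gave 306 calls (1.85%), 150 higher (0.908%) and 156 lower (0.944%), with 13.9% at an unadjusted p under 0.05.

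A model with both nucleus and amplification date could be fitted only by taking CM labelled by AAV and CM labelled with the dye DiI (3 libraries of males, dated 20150806) as 1 nucleus. The libraries dated 20150602 were then linked to other dates through CM alone. Its AAV and DiI libraries differ also in tracer, sex and age, so the date term cannot be told apart from these. In that fit 19 genes were called, 1 higher and 18 lower in PVT, and among the named genes called above Vwa5b1, Adarb2, Ptk2b, Pex5l, Cplx1, Sparcl1 and Prkcd kept their calls. Calb2 lost its call (log2 fold change 3.89 ± 1.61, adjusted p = 0.58), and Prph had no usable estimate (SE 26571). Date also separated libraries of the same nucleus: for VA and VL, 5 libraries of the PVT date against 9 of other dates, 364 of 14236 genes were called (2.56%), 207 higher (1.45%) and 157 lower (1.10%) on the PVT date. None of the 9 had the date of CL, PCN and CM. The VA and VL values therefore do not set 20150421 against 20150602. The ribosomal RNA gene copy Rn18s-rs5 was at 5991, 4151 and 3016 CPM in PVT and 28848 to 47102 CPM in the 12 libraries, yet at 2813 to 4203 CPM in IMD, which shares the PVT date. Its log2 fold change was -2.95 ± 0.66 against CL, PCN and CM (adjusted p = 0.00371) and 0.45 ± 0.81 with date in the model (adjusted p = 1). Lars2, the mitochondrial leucyl-tRNA synthetase, did likewise: 447, 426 and 296 CPM in PVT, 2215 to 4362 CPM in the 12 libraries and 346 to 414 CPM in IMD. In VA and VL, Lars2 had a log2 difference of -1.69 on the PVT date (adjusted p = 0.00883), and Rn18s-rs5 had -1.24 there (adjusted p = 0.126). Both genes share sequence with ribosomal RNA copies, so their counts are uncertain. For a gene described below that was also called with date in VA and VL, that value is given beside it.

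**Figure D3:**
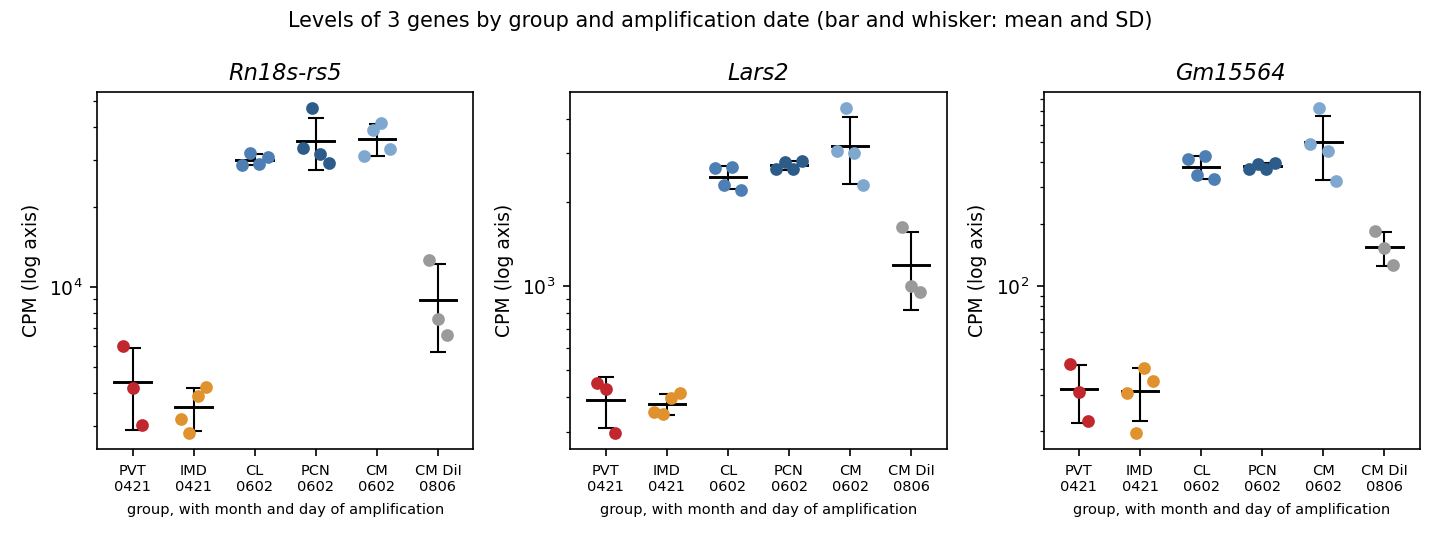
CPM of Rn18s-rs5, Lars2 and Gm15564 in each library on log axes, grouped by nucleus with the month and day of amplification; bars and whiskers are the mean and SD. The PVT and IMD libraries of 20150421 are the lowest, the CL, PCN and CM libraries of 20150602 the highest, and the DiI libraries of CM lie between them.

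Of 13 growth-associated and axonal cytoskeleton genes tested, 4 were called, all higher in PVT, and 9 did not pass, against 1.21% of all genes called higher, and the list's median log2 fold change was 0.34, against -0.04 over all genes. Gap43, a membrane protein of growing and remodelling axon terminals, stood at 1347, 1532 and 938 CPM in PVT. It ran from 250 to 597 CPM in the 12 libraries, with a median of 411 CPM. The ranges were far apart, and the log2 fold change was 1.58 ± 0.23 (adjusted p = 1.27e-06). Tubb2a, a beta tubulin, averaged 1071 ± 250 CPM in PVT and 351 ± 26.7, 371 ± 85.8 and 448 ± 12.3 CPM in CL, PCN and CM (log2 fold change 1.46 ± 0.29, adjusted p = 0.000699). Between dates in VA and VL, Tubb2a had a log2 difference of 1.63 on the PVT date (adjusted p = 9.07e-06), whereas Gap43 had 0.36 there (adjusted p = 0.263). With date in the model the fold changes between the nuclei were 0.45 ± 0.40 for Tubb2a (adjusted p = 1) and 1.38 ± 0.41 for Gap43 (adjusted p = 0.268). Stmn2, which binds tubulin in axons, averaged 982 ± 263 CPM in PVT and 467, 504 and 536 CPM in CL, PCN and CM (log2 fold change 0.97 ± 0.19, adjusted p = 0.00069, and 0.116 without PVT replicate 2). Prph, given above, is the remaining called member. Leaving out any 1 of the 15 libraries kept the calls of Gap43, Tubb2a and Prph.

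Of 19 calcium-binding genes tested, Calb2 and Necab2 were called, both higher in PVT, and of 26 neuropeptide and granule genes Cbln2, Chgb and Cpe were called, all higher, against 1.21% of all genes. DESeq2 also called 1 gene of each list lower, and the edgeR 4 method 1 granule gene lower. The median log2 fold changes were 0.41 and 0.24. Chromogranin B, the granule protein encoded by Chgb, was at 900, 1232 and 981 CPM in PVT and at 309 to 618 CPM in the 12 libraries, with a median of 426 CPM. Its log2 fold change was 1.21 ± 0.22 (adjusted p = 0.000188), and it was called against CL, PCN and CM each. With date in the model the fold change of Chgb was 0.22 ± 0.38 (adjusted p = 1). Cpe, the carboxypeptidase that trims peptide precursors in granules, was at 1140, 1208 and 1064 CPM in PVT and 317 to 752 CPM in the 12 libraries (log2 fold change 1.18 ± 0.24, adjusted p = 0.000917). Cpe in VA and VL had a log2 difference of 1.28 on the PVT date (adjusted p = 0.000426), and with date in the model its fold change between the nuclei was 0.03 ± 0.35. Necab2, a neuronal calcium sensor, was at 139, 156 and 106 CPM in PVT and 17.8 to 72.4 CPM in the 12 libraries (log2 fold change 2.11 ± 0.55, adjusted p = 0.0172); without PVT replicate 1 or 2 its adjusted p was 0.0824 and 0.125.

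Cbln2, a secreted organizer of synapses, varied within PVT, at 1.75, 69.1 and 9.77 CPM, and its range overlapped with that of the 12 libraries, 0 to 15.8 CPM. It was called at a log2 fold change of 4.33 ± 0.87 (adjusted p = 0.000787), but PVT replicate 2 decided that value: without it the adjusted p was 0.537. The other granule genes measured, among them Scg2, Scg3, Chga, Pam and Pcsk2, had log2 fold changes of 0.28, 0.47, 0.97, 0.92 and 0.07 and were not called. Galanin, fixed among the genes to name because it marks a class of PVT neurons, was at 27.2, 85.2 and 26 CPM in PVT and 0.245 to 64.9 CPM in the 12 libraries (log2 fold change 0.34 ± 1.49, adjusted p = 1). Its PVT libraries overlapped with the others.

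Genes of transmitter release were called in both directions: 2 of the 27 tested were higher in PVT and 4 lower, against 1.21% and 0.968% of all genes, with a median log2 fold change of -0.15. DESeq2 called 2 higher and 8 lower. Complexin 1, the SNARE clamp encoded by Cplx1, was at 11.0, 46.5 and 56.4 CPM in PVT. It was at 80.2, 217, 217 and 129 CPM in CL, at 191, 265, 175 and 337 CPM in PCN, and at 157, 307, 227 and 136 CPM in CM. All 3 PVT libraries were below the lowest of the 12, and the log2 fold change was -2.40 ± 0.35 (adjusted p = 1.16e-06). The call held against each nucleus alone, without any 1 library, and with date in the model (-2.54 ± 0.50, adjusted p = 0.00443). IMD, at 30.0 to 50.1 CPM, overlapped with PVT (-0.11 ± 0.35, adjusted p = 1), and over the 22 nuclei only SPA had a lower mean than PVT.

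Vamp2, the vesicle SNARE of fast release, was at 720, 571 and 638 CPM in PVT and 1309 to 2054 CPM in the 12 libraries (log2 fold change -1.30 ± 0.23, adjusted p = 0.0001). In VA and VL it had a log2 difference of -1.43 on the PVT date (adjusted p = 9.07e-06), and with date in the model the fold change between nuclei was -0.07 ± 0.25. Syt1, the fast calcium sensor of release, averaged 1225 ± 76.7 CPM in PVT and 1776, 2083 and 1973 CPM in CL, PCN and CM (log2 fold change -0.66 ± 0.16, adjusted p = 0.00704, and 0.055 without PVT replicate 1), and Sv2a, a vesicle glycoprotein, had a log2 fold change of -0.70 ± 0.21 (adjusted p = 0.0485). The synaptotagmins Syt5 and Syt4 went the other way. Syt5 was at 357, 289 and 199 CPM in PVT and 23.8 to 115 CPM in the 12 libraries (log2 fold change 2.39 ± 0.64, adjusted p = 0.0217), and Syt4, found on dense-core granules, averaged 897 ± 170 CPM in PVT and 499 ± 79.9, 481 ± 73.8 and 604 ± 44.5 CPM in CL, PCN and CM (0.77 ± 0.21, adjusted p = 0.0292). Leaving out single libraries ended the calls of Syt1, as given, Syt5, Syt4 and Sv2a. Syt5 had adjusted p values of 0.147 and 0.0994 without PVT replicates 1 and 2, Syt4 had 0.357 and 0.118 without PVT replicates 2 and 3 and 0.0567 and 0.0546 without PCN replicate 4 and CL replicate 3, and Sv2a lost its call without any of 8 libraries, the 3 of PVT, PCN replicate 2, CM replicate 4 and CL replicates 1, 2 and 4, with adjusted p from 0.0506 to 0.253.

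**Figure D4:**
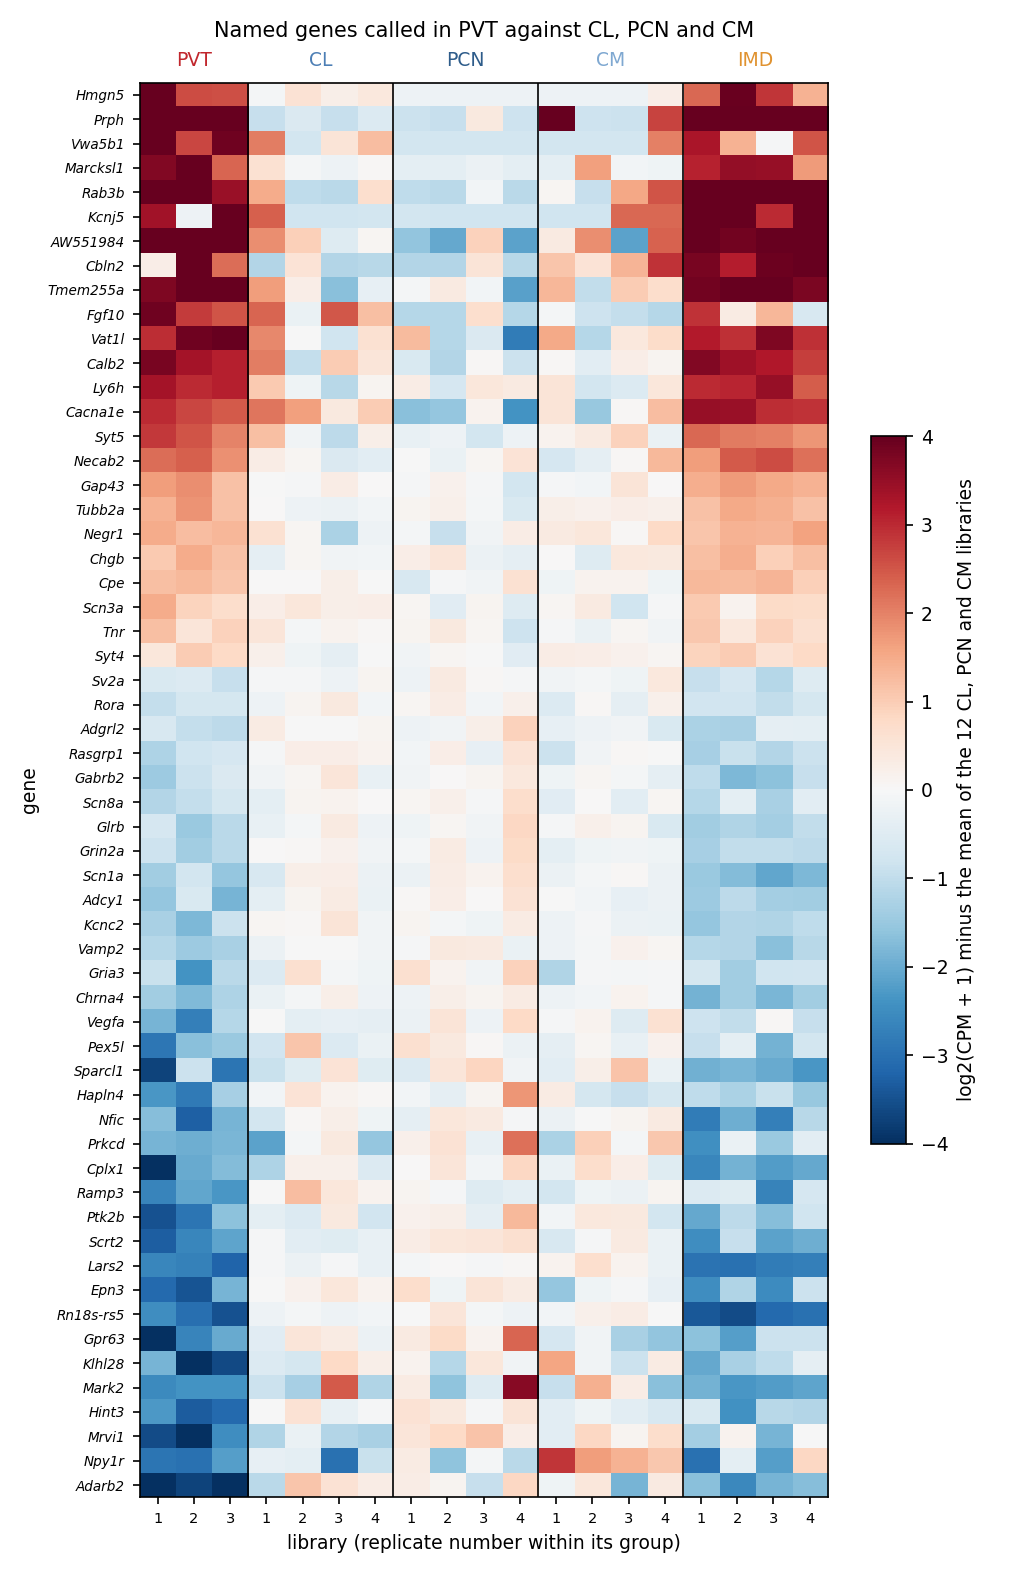
Named genes reported here that were called in PVT against CL, PCN and CM, ordered by fold change, in each library; colour is log2(CPM + 1) minus the mean of the 12 CL, PCN and CM libraries, with PVT at the left and IMD at the right. The IMD columns resemble the PVT columns for most genes, and the PVT libraries are spread widely for Cbln2, while PVT replicate 2 stands apart for Kcnj5 and Sparcl1.

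Genes of ligand-gated receptors for fast transmission, where called by edgeR, were lower in PVT. Glutamate receptor genes gave 2 calls of 24, GABA and glycine receptor genes 2 of 20 and acetylcholine receptor genes 1 of 6, all lower in edgeR, against 0.968% of all genes, with list medians of -0.13, -0.20 and -0.16 on the log2 scale. At an unadjusted p under 0.05 there were 8, 6 and 1. The balance of directions depended on the tool. DESeq2 called 4, 2 and 1 lower and 0 higher in these lists, with 295 higher and 847 lower over all 16527 genes. By contrast limma-voom called 2, 3 and 0 higher and 1, 2 and 1 lower, with 618 higher and 325 lower over all genes. The edgeR 4 method called 1, 3 and 0 higher and 4, 2 and 1 lower, with 790 higher and 293 lower over all genes. Chrna4, a nicotinic receptor subunit, was at 184, 143 and 206 CPM in PVT and 410 to 620 CPM in the 12 libraries (log2 fold change -1.47 ± 0.29, adjusted p = 0.000655). The ranges were separate, and the call held without any 1 library. Grin2a, an NMDA receptor subunit, averaged 207 ± 41.0 CPM in PVT and 445 ± 38.7, 518 ± 161 and 375 ± 30.3 CPM in CL, PCN and CM (-1.10 ± 0.30, adjusted p = 0.0226). Gria3, an AMPA receptor subunit, was at 85.6, 29.8 and 75.3 CPM in PVT, overlapping with 68.1 to 302 CPM in the 12 libraries (-1.39 ± 0.33, adjusted p = 0.00704). Glrb, the glycine receptor beta subunit, and Gabrb2, a GABA-A receptor subunit, had log2 fold changes of -1.08 ± 0.30 and -0.94 ± 0.22 (adjusted p = 0.0308 and 0.00723). Glrb in VA and VL had a log2 difference of -0.94 on the PVT date (adjusted p = 0.0163). With date in the model none of these receptor genes kept its call. The values were -0.89 ± 0.42 for Chrna4, -0.73 ± 0.45 for Grin2a and -1.58 ± 0.50 for Gria3. Glrb had -0.06 ± 0.43 and Gabrb2 -0.15 ± 0.33. Leaving out PVT replicate 2 ended the calls of Gria3, Grin2a and Glrb (adjusted p = 0.199, 0.211 and 0.285), PVT replicate 3 those of Grin2a and Glrb (0.0966 and 0.118), PVT replicate 1 that of Gabrb2 (0.157) and PCN replicate 4 that of Glrb (0.0547).

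Ion channel genes were split, with 1 higher and 1 lower of 35 voltage-gated potassium channel genes, 1 higher of 21 leak and inward rectifier genes, 1 higher and 2 lower of 11 sodium channel genes, and 1 higher and 1 lower of 32 calcium, HCN and TRP channel genes, against 1.21% of all genes higher and 0.968% lower. The potassium channel gene called higher was Kcnv1, a modulatory subunit, at 1.5 ± 2.56 CPM in PVT with no read in the 12 libraries, and its adjusted p was 0.506 without PVT replicate 1. Kcnc2, a potassium channel of the fast-spiking class, was at 204, 144 and 273 CPM in PVT and 418 to 710 CPM in the 12 libraries (log2 fold change -1.28 ± 0.23, adjusted p = 0.0001), and was called against each of CL, PCN and CM. Kcnc2 in VA and VL had a log2 difference of -0.70 on the PVT date (adjusted p = 0.0116). Of 11 sodium channel genes, Scn1a and Scn8a, the alpha subunits of mature axons, were lower and Scn3a, an alpha subunit best known from early development, was higher. Scn1a stood at 183, 289 and 163 CPM in PVT and 306 to 757 CPM in the 12 libraries (-1.20 ± 0.23, adjusted p = 0.000447). Scn8a stood at 205, 235 and 282 CPM in PVT and 334 to 754 CPM in the 12 (-0.96 ± 0.22, adjusted p = 0.00549). Scn3a stood at 296, 194 and 172 CPM in PVT and 59.7 to 142 CPM in the 12 (1.05 ± 0.30, adjusted p = 0.0379). All 3 kept apart from the range of the 12 libraries. With date in the model neither these 3 nor Kcnc2 kept their calls. The values were -0.59 ± 0.33 for Scn1a, -1.05 ± 0.32 for Scn8a, 0.80 ± 0.55 for Scn3a and -0.58 ± 0.29 for Kcnc2. Scn8a had an adjusted p of 0.0733 without PVT replicate 1, and Scn3a lost its call without any of 10 libraries, the 3 of PVT, PCN replicates 2 and 4, CM replicates 3 and 4 and CL replicates 1, 3 and 4, with adjusted p from 0.0527 to 0.412.

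Pex5l, an auxiliary subunit that sets the surface level of HCN pacemaker channels, was at 11.9, 29.4 and 33.1 CPM in PVT and 55.9 to 208 CPM in the 12 libraries (log2 fold change -2.03 ± 0.39, adjusted p = 0.00044). It was called against each nucleus alone and with date in the model (-2.34 ± 0.54, adjusted p = 0.0372). Cacna1e, the R-type calcium channel subunit, was at 185, 149 and 128 CPM in PVT and 3.43 to 102 CPM in the 12 libraries (2.53 ± 0.58, adjusted p = 0.00538), with an adjusted p of 0.0506 without PVT replicate 1. PCN was lowest for Cacna1e, at 10.4 ± 9.74 CPM, and CL highest among the 3 nuclei, at 62.3 ± 31.3 CPM. Kcnj5, an inward rectifier gated by G proteins, was at 16.7, 0.497 and 28.7 CPM in PVT and 0 to 7.96 CPM in the 12 libraries (4.84 ± 1.4, adjusted p = 0.0441). The ranges overlapped through PVT replicate 2, and the call of Kcnj5 ended without any of 13 libraries, all but PCN replicate 1 and CL replicate 1.

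Of 27 peptide receptor genes edgeR called 2 higher and 2 lower in PVT, against 1.21% and 0.968% of all genes. Both limma-voom and the edgeR 4 method called 4 higher and 4 lower, and DESeq2 1 higher and 3 lower. In edgeR, Npy1r and Ramp3 were lower in PVT. Tacr1 and Grpr, receptors for substance P and gastrin-releasing peptide, were higher at low level, averaging 1.56 ± 2.58 and 2 ± 3.38 CPM in PVT with 1 library carrying most of each. Without PVT replicate 1 the adjusted p of Tacr1 was 0.663, and without PVT replicate 3 that of Grpr was 0.736. Of 19 monoamine, cannabinoid and adenosine receptor genes edgeR called 1 higher and 0 lower, against 1.21% and 0.968% of all genes. DESeq2 called 1 higher and 1 lower, limma-voom 4 and 1, and the edgeR 4 method 3 and 0. The gene called by edgeR was Htr1b, a serotonin receptor, at 4.53 ± 3.75 CPM in PVT and 0 to 0.614 CPM in the 12 libraries (adjusted p = 0.000236). Npy1r, a neuropeptide Y receptor, was at 0.0416, 0 and 0.704 CPM in PVT, at 3.38 ± 2.42 CPM in CL, 4.95 ± 3.36 CPM in PCN and 29.1 ± 18.6 CPM in CM, with 1 of the 12 libraries at 0 (log2 fold change -4.93 ± 1.23, adjusted p = 0.0108). Its adjusted p was 0.108 and 0.122 without PVT replicates 1 and 2. Ramp3, a partner of calcitonin-family receptors, was at 7.41, 11.3 and 9.33 CPM in PVT and 30.6 to 123 CPM in the 12 libraries (-2.50 ± 0.74, adjusted p = 0.0472), and its call ended without any of 11 libraries, all but CL replicates 1 and 4, PCN replicate 3 and CM replicate 1, with adjusted p from 0.0531 to 0.216. Npy2r averaged 62.2 ± 32.9 CPM in PVT and 5.75 ± 6.11, 15.6 ± 12.9 and 23.9 ± 11.4 CPM in CL, PCN and CM, and was not called (2.27 ± 1.10, adjusted p = 0.34). Drd2, the dopamine receptor that marks a class of PVT neurons, had the highest mean of the 22 nuclei in PVT, 60.4 ± 21.2 CPM, against 27.7 ± 9.22, 29.6 ± 17.4 and 13.5 ± 16.2 CPM in CL, PCN and CM. It was not called either (1.44 ± 0.95, adjusted p = 0.53). Cnr1, the cannabinoid receptor, averaged 147 ± 37.2 CPM in PVT, and 211 ± 100 CPM in CL, 66.6 ± 43.2 CPM in PCN and 77.2 ± 23.4 CPM in CM (0.51 ± 1.27, adjusted p = 0.989).

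Transcription factors that were called were lower in PVT: 4 of the 34 on the general list and 1 of the 16 homeobox and thalamic identity factors, against 0.968% of all genes. Called higher in these lists were 1 and 2 members with limma-voom and 3 and 1 with the edgeR 4 method. Rora, an orphan nuclear receptor expressed across thalamus, was at 532, 626 and 633 CPM in PVT and 701 to 1344 CPM in the 12 libraries (log2 fold change -0.81 ± 0.22, adjusted p = 0.03), but leaving out PVT replicate 1, 2 or 3 gave adjusted p values of 0.171, 0.1 and 0.0817. Esrrg, an orphan nuclear receptor, had no read in PVT and 0.172 to 47.7 CPM in the 12 (adjusted p = 0.0001). Sox2 was at most 0.088 CPM in PVT and 7.78 CPM in the 12 (adjusted p = 0.043), and its call ended without any of 7 libraries. Nfic, a nuclear factor I protein, was at 28.6, 9.14 and 25.6 CPM in PVT and 57.9 to 132 CPM in the 12 libraries (-2.22 ± 0.50, adjusted p = 0.00367). In VA and VL it had a log2 difference of -1.63 on the PVT date (adjusted p = 0.00679), and without PVT replicate 2 its adjusted p was 0.0956. The general thalamic factor Tcf7l2 had its lowest mean of the 22 nuclei in PVT, 1024 ± 79.2 CPM, below all 12 libraries (1298 to 1996 CPM), and was not called (-0.63 ± 0.20, adjusted p = 0.0702). Tcf7l2 in VA and VL had a log2 difference of -1.04 on the PVT date (adjusted p = 0.000382). Gbx2, which specifies medial thalamus, was at 145, 266 and 204 CPM in PVT and 59.5 to 130 CPM in the 12 libraries (1.23 ± 0.79, adjusted p = 0.517).

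Of 34 G protein signalling regulators edgeR called Prkcd, Adcy1 and Rasgrp1, 3 genes lower in PVT, against 0.968% of all genes, whereas limma-voom called 3 higher and 2 lower and the edgeR 4 method 4 higher and 3 lower. Ptk2b, named for the size of its change, a calcium-activated tyrosine kinase, was at 12.4, 18.5 and 46.9 CPM in PVT and 86.9 to 364 CPM in the 12 libraries (log2 fold change -2.61 ± 0.49, adjusted p = 0.000281). It kept its call without any 1 library and with date in the model (-2.74 ± 0.64, adjusted p = 0.038). Prkcd, the protein kinase C that labels sensory thalamus, was steady in PVT, at 24.1, 22.7 and 24.9 CPM, and ran from 20.0 to 423 CPM in the 12 libraries (-2.24 ± 0.53, adjusted p = 0.00704). Its adjusted p was 0.0533 and 0.0653 without PVT replicates 1 and 2. Adcy1, an adenylyl cyclase stimulated by calmodulin, and Rasgrp1, an activator of Ras, had log2 fold changes of -1.26 ± 0.29 and -0.91 ± 0.21 (adjusted p = 0.00491 and 0.00474). Without PVT replicate 1 these were 0.0726 for Adcy1 and 0.0933 for Rasgrp1, and without PVT replicate 3 it was 0.104 for Adcy1.

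Of 19 extracellular matrix genes, 3 were lower in PVT and 1 higher, against 0.968% and 1.21% of all genes, with a median log2 fold change of -0.75. Sparcl1, the synapse-promoting protein hevin, was at 25.1, 186 and 43.9 CPM in PVT and 182 to 748 CPM in the 12 libraries. PVT replicate 2 exceeded the lowest of the 12, CL replicate 1, and the log2 fold change was -2.11 ± 0.35 (adjusted p = 2.76e-05), kept without any 1 library. Hapln4, a link protein of perineuronal nets, was at 15.1, 10.4 and 31.4 CPM in PVT and 41.3 to 277 CPM in the 12 (-2.21 ± 0.60, adjusted p = 0.0268, and 0.154, 0.237 and 0.0546 without PVT replicate 1, PVT replicate 2 and PCN replicate 4). Tnr, tenascin R, went the other way, at 481, 294 and 391 CPM in PVT and 116 to 291 CPM in the 12 libraries (0.88 ± 0.25, adjusted p = 0.0376). Its call ended without any of 10 libraries, the 3 of PVT, PCN replicate 4, CM replicates 1, 2 and 4 and CL replicates 2, 3 and 4. Of 53 adhesion genes edgeR called 2 higher and 1 lower, against 1.21% and 0.968% of all genes, with a median log2 fold change of -0.11. DESeq2 called 3 higher and 5 lower, limma-voom 4 and 2, and the edgeR 4 method 4 and 3. In edgeR, Negr1 was higher in PVT (1.29 ± 0.29, adjusted p = 0.00349, and 0.052 without PVT replicate 1), as was Cdh22, a cadherin, at 1.56 ± 2.24 CPM in PVT with no read in the 12 libraries. Adgrl2, given below, was the member called lower. Of 37 axon guidance genes edgeR called 0, against 2.18% of all genes. An unadjusted p under 0.05 was found for 4 of them, against 13.8% of all genes. DESeq2 called 2 lower, limma-voom 2 higher and 1 lower, and the edgeR 4 method 2 higher and 3 lower. Of 15 immediate early genes, which report recent activity, edgeR, DESeq2 and limma-voom each called 0 and the edgeR 4 method 1 higher. In edgeR 2 of them had an unadjusted p under 0.05, against 13.8% of all genes, and the median log2 fold change was -0.81.

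Several genes stood out by the size of the fold change. Hmgn5, a protein that binds nucleosomes, was at 22.6, 6.01 and 5.90 CPM in PVT and at most 0.716 CPM in the 12 libraries. Vwa5b1 was at 48.8, 9.54 and 23.5 CPM in PVT and at most 5.84 CPM in the 12. Both had no read in any PCN library, so their fitted log2 fold changes, 7.35 and 6.48, depend on the prior count. Against a floor of 3 counts over the PCN group, the PVT mean of Hmgn5 was at least 289-fold higher and that of Vwa5b1 at least 684-fold higher, and the ratios to the mean of the 3 nuclei were 66.8 and 20.7.

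Tmem255a averaged 83.8 ± 20.0 CPM in PVT and 5.55 ± 6.04, 2.98 ± 2.09 and 6.88 ± 4.03 CPM in CL, PCN and CM (log2 fold change 4.11 ± 0.86, adjusted p = 0.00138). AW551984 averaged 116 ± 16.4 CPM in PVT and 7.09 ± 5.79, 1.98 ± 3.61 and 10.2 ± 9.70 CPM in the 3 nuclei (4.47 ± 1.09, adjusted p = 0.0103). Both kept their calls without any 1 library. Ly6h, whose product modulates nicotinic receptors, was at 127, 100 and 109 CPM in PVT and 4.98 to 25.7 CPM in the 12 libraries (3.11 ± 0.79, adjusted p = 0.0138). Ly6h in VA and VL had a log2 difference of 3.15 on the PVT date (adjusted p = 0.00715), and with date in the model the value between nuclei was 0.21 ± 1.51. Marcksl1, an actin-binding protein, had a difference with date in VA and VL of 8.73 (adjusted p = 0.0109), against 6.02 ± 1.5 between PVT and the 3 nuclei, which was -3.55 ± 2.63 with date in the model. The vesicle GTPase gene Rab3b, the growth factor gene Fgf10 and Vat1l had log2 fold changes of 5.35, 4.04 and 3.6. Without PVT replicate 1 the adjusted p was 0.123 for Rab3b, 0.185 for Fgf10 and 0.0711 for Ly6h, without PVT replicate 2 it was 0.0639 for Marcksl1, 0.0526 for Ly6h and 0.0666 for Fgf10, and without PVT replicate 3 it was 0.0824 for Vat1l. Fgf10 also lost its call without CL replicate 2, PCN replicate 1, 2 or 4, or CM replicate 3 or 4.

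In the other direction, Mrvi1, a substrate of cyclic GMP kinase in the endoplasmic reticulum, was at 1.08, 0 and 3.48 CPM in PVT and 9.13 to 54.0 CPM in the 12 libraries (log2 fold change -4.02 ± 0.77, adjusted p = 0.000347). Klhl28 was at 8.57, 0.944 and 1.89 CPM in PVT and 14.9 to 104 CPM in the 12 (-3.34 ± 0.62, adjusted p = 0.000247). Both were called against CL, PCN and CM each, and without any 1 library. Scrt2, a zinc-finger repressor, Gpr63, an orphan receptor, Hint3 and Epn3, an epsin of endocytosis, had log2 fold changes of -2.81, -3.20, -3.63 and -2.86, each with PVT below the 12 libraries. In VA and VL, Scrt2 had a log2 difference of -2.29 on the PVT date (adjusted p = 0.00679). These calls ended without PVT replicates 1 and 2, with adjusted p of 0.0965 and 0.0653 for Scrt2, 0.127 and 0.0711 for Gpr63, 0.0577 and 0.207 for Hint3 (also 0.14 without PVT replicate 3) and 0.207 and 0.278 for Epn3. Mark2, a kinase of microtubule-associated proteins, was steady at 40.5, 44.8 and 44.7 CPM in PVT, and reached 2984 CPM in PCN replicate 4 and 1323 CPM in CL replicate 3 from a lowest value of 74.6 CPM in the 12. Its call (-3.44 ± 1.02, adjusted p = 0.0488) ended without any of 7 libraries, the 3 of PVT, CM replicates 2 and 3, PCN replicate 4 and CL replicate 3. Vegfa, an angiogenic growth factor, and Adgrl2, an adhesion receptor, had log2 fold changes of -1.91 and -0.91. For Vegfa the adjusted p was 0.105 and 0.236 without PVT replicates 1 and 2, and for Adgrl2 it was 0.0516 to 0.204 without any of the 3 PVT libraries, PCN replicate 4 or CL replicate 1.

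Of the 60 named genes that were called, 25 were higher and 35 lower in PVT, and 23 kept their call without any 1 of the 15 compared libraries. PVT replicate 2 ended the call of 29, PVT replicate 1 of 27 and PVT replicate 3 of 15. Within the 3 mice that gave both PVT and CL libraries, a fit with the animal as a block called 263 of 12561 genes tested. It called 37 of the 60, among them Prph (log2 fold change 8.91 ± 0.80), Calb2 (3.20 ± 0.39), Gap43 (1.46 ± 0.17), Cplx1 (-2.55 ± 0.50) and Adarb2 (-6.92 ± 1.05). The libraries of that fit had also served to choose the 60, so the 37 calls are not an independent test. Of the 23 genes whose call held without any 1 library, 5 lost it in that fit, Mrvi1 (adjusted p = 0.292), Hmgn5 (0.183), Vwa5b1 (0.175), Pex5l (0.0754) and Klhl28 (0.0684). That fit holds mouse, sex, tracer and age constant and still spans both dates.

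PVT and IMD shared date, tracer, sex and 3 mice, and far fewer genes separated them: 6 of 16527 were called (0.0363%), 1 higher (0.00605%) and 5 lower (0.0303%). At an unadjusted p under 0.05 there were 839 (5.08%), and DESeq2 called 523. Within the 3 shared mice edgeR called 0 of 12606 genes, with 515 at an unadjusted p under 0.05. Adarb2, Sox2, Slc4a4, Dleu2 and Sorcs1 were lower in PVT and Sema5a was higher; all but Adarb2 were named after their values were seen. Sox2, a progenitor factor also used by glia, was at 0.0832, 0 and 0.088 CPM in PVT and 20.1, 10.3, 7.56 and 3.96 CPM in IMD (log2 fold change -7.31 ± 1.51, adjusted p = 0.0144). Dleu2, a noncoding RNA, had 0.0416, 0 and 0 CPM in PVT and 1.66 to 5.64 CPM in IMD. Slc4a4, a bicarbonate transporter, had 0, 0 and 0.176 CPM in PVT and 0 to 3.79 CPM in IMD. Sorcs1, a sorting receptor, had 2.54, 1.04 and 0.352 CPM in PVT and 6.27 to 31.6 CPM in IMD (-3.87 ± 0.71, adjusted p = 0.00567). Sema5a, a semaphorin guidance cue, was at 254, 265 and 440 CPM in PVT and 62.7 to 117 CPM in IMD (1.90 ± 0.39, adjusted p = 0.0144), and was not called against CL, PCN and CM (0.37 ± 0.32, adjusted p = 0.695). Without PVT replicate 2 there was 1 call, and without PVT replicate 3 or IMD replicate 1 there were 3.

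**Figure D5:**
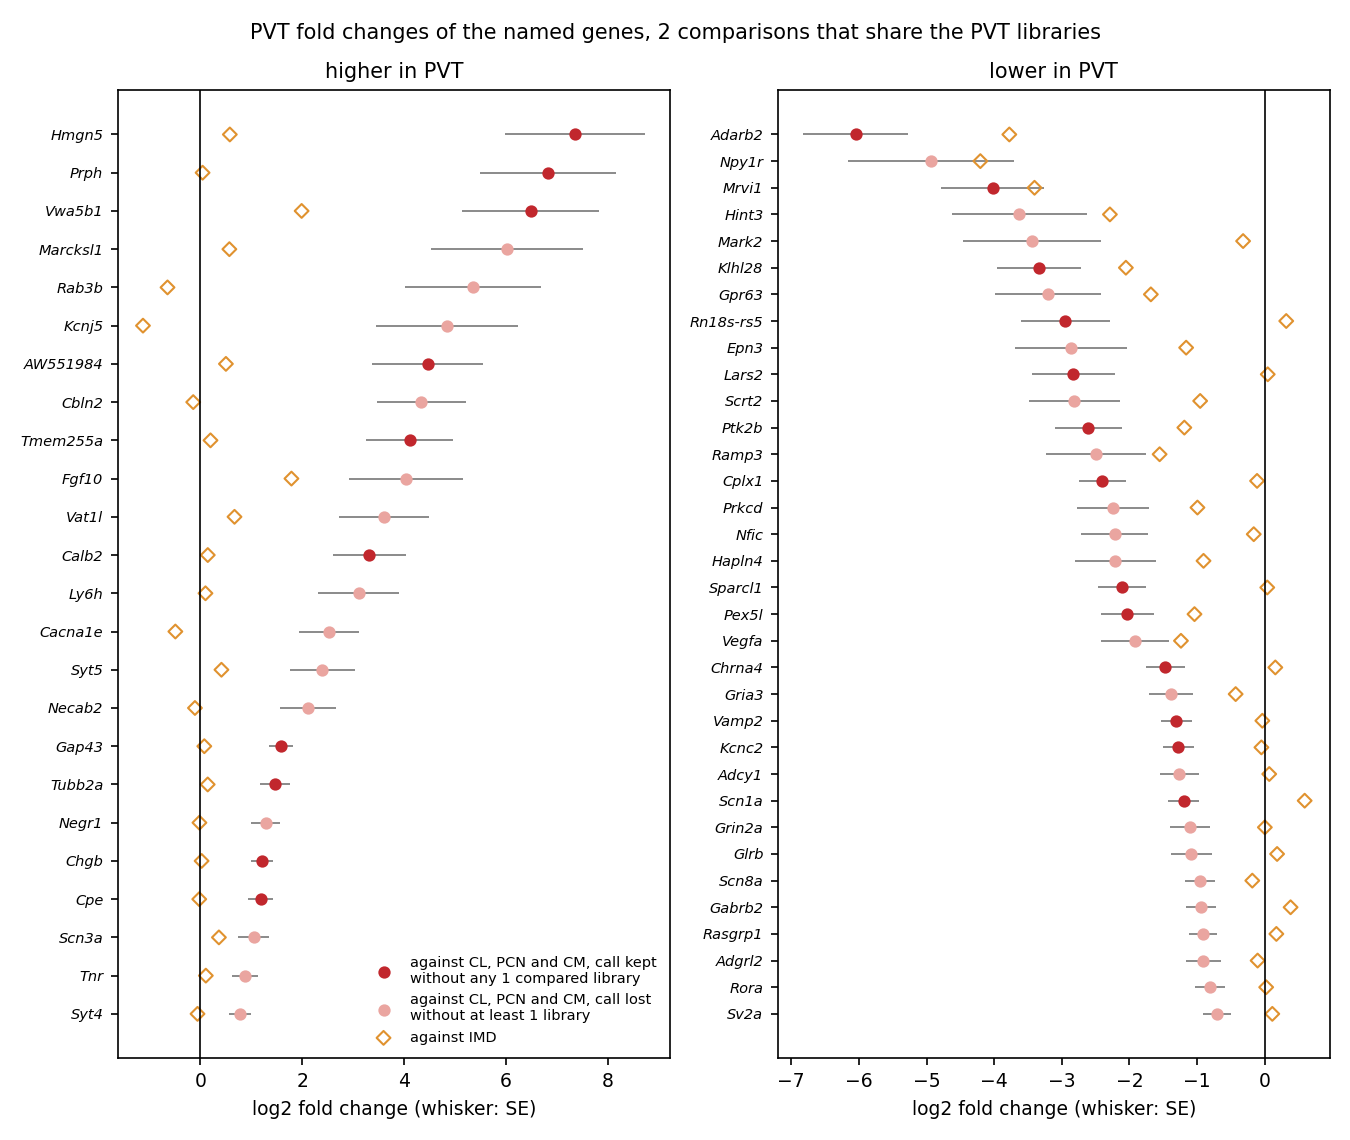
Log2 fold change of each reported named gene called in PVT against CL, PCN and CM, as filled circles with SE whiskers, and against IMD, as open diamonds, for genes higher in PVT at the left and lower in PVT at the right. Dark red circles mark the 23 genes whose call held without any 1 compared library; most diamonds lie near 0, with Adarb2, Npy1r and Mrvi1 furthest below it.

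Taking all genes together, the mean profile of PVT lay closest to IMD, with a root mean square difference of 0.613 on the log2(CPM + 1) scale, then to PF (0.750), CL (0.789), CM (0.805) and PCN (0.850), of the 21 other nuclei. All of these were labelled by AAV from the striatum, as PVT was, and IMD also shared its date, sex and 3 mice. In this ranking the nucleus cannot be told apart from these. Single PVT libraries differed from each other by 1.07 to 1.33 on the log2(CPM + 1) scale (median 1.28). They differed from CL libraries by 0.951 to 1.44 (median 1.22), so these ranges overlapped. The median was 1.26 to PCN, 1.23 to CM and 1.03 to IMD libraries. Each of these medians was below that among the PVT libraries. Among the 60 called named genes, PVT had the highest mean of the 22 nuclei for 10 and the lowest for 15. Most of these genes were chosen for their difference in the same PVT libraries, which favours such ranks. The share over all genes was not counted, so these numbers do not describe PVT as a whole. Pvalb had 0 reads in PVT, which allows up to 0.0448 CPM over the group when only counting error is considered, ran from 0 to 2.64 CPM in the 12 libraries and was not called (adjusted p = 0.112). Calb1, a further calcium buffer, averaged 395 ± 8.17 CPM in PVT and 328 ± 21.1, 344 ± 33.7 and 340 ± 37.3 CPM in CL, PCN and CM (log2 fold change 0.23 ± 0.47, adjusted p = 0.964), with a log2 difference of 0.99 on the PVT date in VA and VL (adjusted p = 0.00508). Slc17a7, the cortical type of vesicular glutamate transporter, was at 0.125, 0.894 and 18.3 CPM in PVT and 0 to 9.19 CPM in the 12 libraries (1.00 ± 0.80, adjusted p = 0.652), a value set by PVT replicate 3.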

How the data were processed

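Bulk RNA-seq of hand-sorted, retrogradely labelled thalamic neurons was analysed from the deposited raw read counts per gene and library. Per the labels' protocols, RNA was amplified with an Ovation kit, which does not mark strand, so reads of overlapping antisense genes cannot be told apart. Per the submitters' processing notes, the authors used cutadapt 1.16, STAR 2.5.3a, featureCounts 1.52 and mm10. Reads carry no molecular identifiers, so floors (3 counts) cover counting error only.

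All 120 libraries entered 1 edgeR 4.0.16 fit (R 4.3.3) with TMM scaling and the legacy quasi-likelihood test, after a filter of a minimum count of 10 and total of 15 that kept 16527 of 16538 genes. PVT was tested against the mean of CL, PCN and CM, with Benjamini-Hochberg adjustment and a threshold of 0.05. Levels are CPM, counts scaled to the library size. limma 3.58.1 and DESeq2 1.42.0 gave alternatives, as did other scalings, filters, library sets and covariates, and the fit was tested on simulated data. Gene positions are from GENCODE vM21 for GRCm38, matched without ID version for 16495 genes.

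Named genes were the 12 largest changes in each direction with at least 10 CPM and ranges apart, up to 3 called members per direction of each gene list, up to 5 genes per direction called in every comparison, the markers and a fixed list. Gene models without a symbol of their own, Xist and Y-linked genes were passed over. Some named genes counted in totals are not reported here. The members and lists were chosen with earlier results of these data known. Hcrtr1, Hcrtr2, Gad1, Gad2 and endothelial and mural markers were not analysed here. Several libraries share mice, so p-values measure the spread between these libraries. Replicate numbers were not taken as pairing: deviations of PVT and same-numbered CL, PCN or CM libraries correlated at -0.0222 to 0.0156 over 9 pairs. PCN and CM libraries of the same number came from the same mouse, and correlated at -0.0166 to 0.0435 over 4 pairs. None of 27 pairs of libraries of the same group held identical counts.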

Additional observations from a re-analysis of the deposited data

Results flagged for a closer look

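Within groups of 4 libraries, 35 of 272 combinations of a named gene and a group (12.9%) had 1 library whose gap to the nearest other exceeded the 95% critical value of Dixon's test as a share of the group range. For normally distributed values chance flags about 1 in 20. The ratio was taken here on CPM without a log scale, and some flags lay near 0 with the other libraries of the group at 0. The share flagged therefore cannot be set against 1 in 20. Hmgn5 at 0.392 CPM in CM replicate 4, Prph at 1.49 CPM in PCN replicate 3, Vwa5b1 at 5.68 CPM in CM replicate 4, Marcksl1 at 0.0992 CPM in PCN replicate 3 and Marcksl1 at 3.08 CPM in CM replicate 2 stood above the other libraries of the group. Rab3b at 0.942 CPM in PCN replicate 3, AW551984 at 7.39 CPM in PCN replicate 3, Fgf10 at 2.53 CPM in PCN replicate 3 and Mrvi1 at 19.8 CPM in CL replicate 2 stood above the other libraries of the group. Mark2 at 1323 CPM in CL replicate 3, Mark2 at 2984 CPM in PCN replicate 4, Gpr63 at 122 CPM in PCN replicate 4, Cbln2 at 2.31 CPM in CL replicate 2 and Cbln2 at 2.23 CPM in PCN replicate 3 stood above the other libraries of the group. Cpe at 585 CPM in CL replicate 3, Kcnj5 at 7.96 CPM in CL replicate 1, Kcnj5 at 0.0430 CPM in PCN replicate 1, Scn3a at 142 CPM in CL replicate 2 and Cacna1e at 24.8 CPM in PCN replicate 3 stood above the other libraries of the group. Pex5l at 208 CPM in CL replicate 2, Sv2a at 742 CPM in CM replicate 4, Gap43 at 518 CPM in CL replicate 3, Gap43 at 597 CPM in CM replicate 3 and Vegfa at 37.9 CPM in IMD replicate 3 stood above the other libraries of the group. Hapln4 at 277 CPM in PCN replicate 4, Hapln4 at 100.3 CPM in CM replicate 1, Pvalb at 2.15 CPM in CL replicate 2, Pvalb at 0.362 CPM in CM replicate 2 and Cnr1 at 230 CPM in IMD replicate 1 stood above the other libraries of the group. Ramp3 at 7.14 CPM in IMD replicate 3, Gria3 at 68.1 CPM in CM replicate 1, Gria3 at 59.6 CPM in IMD replicate 2, Grin2a at 330 CPM in CM replicate 1 and Vamp2 at 493 CPM in IMD replicate 3 stood below the other libraries of the group. Drd2 at 3.68 CPM in PCN replicate 4 stood below the other libraries of the group. PVT, with 3 libraries, was not screened in this way.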

How the results depend on the processing

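The 360 genes called in PVT against CL, PCN and CM numbered 368 with RLE size factors and 362 without the filter, and ran from 156 to 361 when single libraries were left out (84 to 195 higher and 72 to 166 lower). No pairing by replicate number was found between PVT and the other groups, while PCN and CM libraries of the same number came from the same mouse. The fit of the 15 libraries alone called 1031 (576 higher, 455 lower) and with the replicate block 769 (394 higher, 375 lower). limma-voom with the animal as a block called 943 (618 higher, 325 lower), DESeq2 1142 (295 higher, 847 lower) and the newer edgeR 4 method 1083 (790 higher, 293 lower). Nucleus and date as terms gave 19 (1 higher, 18 lower), female libraries alone 189 (67 higher, 122 lower), leaving out PVT replicate 2 and PCN replicate 4 together 113 (53 higher, 60 lower), CM from DiI 306 (150 higher, 156 lower), CM labelled by DiI alone 113 (17 higher, 96 lower), CL, PCN and CM alone 85 (24 higher, 61 lower), 160 (37 higher, 123 lower) and 110 (24 higher, 86 lower), and PVT against CL within 3 mice 263 (148 higher, 115 lower).

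With the 15 libraries alone, the replicate block, limma-voom, DESeq2, edgeR 4, the date term, and both small libraries (PVT replicate 2 and PCN replicate 4) left out, the 85 genes against CL became 451, 418, 386, 839, 383, 6 and 38, with 263 within mice. Leaving out 1 library gave 38 to 89. The 160 against PCN became 622, 506, 515, 976, 631, 19 and 35, and 72 to 164. The 110 against CM became 495, 430, 356, 912, 401, 21 and 50, with 40 among females, and 42 to 113. The 6 against IMD became 1 in the fit of the compared groups and IMD, 18 with limma-voom, 523 with DESeq2, 43 with edgeR 4, 1 without both small libraries and 0 within mice (edgeR, 515 at an unadjusted p under 0.05), and 1 to 7. The 7 among CL, PCN and CM became 12 with the replicate block, 20 with limma-voom, 58 with edgeR 4 and 4 among females, and 3 to 9.

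Directions turned for some genes. With date as a term these were Marcksl1 (-3.55), Rn18s-rs5 (0.45), Lars2 (0.38), Slc17a6 (-0.21), Slc17a7 (-0.30), Tcf7l2 (0.0251), Gbx2 (-0.0637), Calb1 (-0.42), Gal (-1.37) and Npy2r (-1.94). Slc17a6 was at -0.0312 among females and -0.0196 against PCN, and ran from -5.07e-05 to 0.11 without 1 library. Slc17a7 was at -1.49 within mice and -0.85 against CM labelled by DiI, and ran from -2.69 to 1.54. Gal was at -0.61 without both small libraries, -0.25 within mice and -0.10 against CM labelled by DiI, and ran from -0.48 to 0.61. Cnr1 was at -0.24 within mice and -0.52 against CL. Against IMD within mice Prph was at -0.11, Cpe 0.0192, Grin2a -0.0764, Vamp2 0.0348, Sparcl1 -0.45, Adcy1 -0.0655 and Slc17a7 -2.25. The cause was not tested. Only libraries of the PVT date could not be compared, since no CL, PCN or CM library has it, and date with the groups as labelled could not be estimated. Alternatives with the newer edgeR method, date, females, shared mice, both small libraries, IMD libraries left out and CM labelled by DiI alone were chosen after seeing the data.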
